A study of Mus musculus with 4 samples.

Results

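The genes of cholesterol and fatty acid synthesis were followed in macrophages grown from mouse bone marrow. The group holds 32 genes, chosen by symbol from the 16375 genes of the deposited table, and all 32 were listed and detected in every library. It runs from the mevalonate pathway through squalene and lanosterol to cholesterol, with the regulators of that pathway, and from acetyl-CoA through the fatty acid synthase to elongated and desaturated fatty acids. Of these, 18 are enzymes of sterol synthesis, 9 are enzymes of fatty acid synthesis and modification, and 5 are regulators or sterol carriers.

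The study compared WT mice with mice that lack the long noncoding RNA lncLy6c (LNCKO, made by CRISPR-Cas9), each cultured without treatment (control) or for 24 h with 500 µM butyrate, a short-chain fatty acid that gut bacteria make from fiber. The 4 groups (WT and LNCKO, each as control and with butyrate) were all bone marrow cells differentiated with M-CSF, and each group is 1 library. No spread between replicates can therefore be given, and no difference was tested. Every interval of a change below is a 95% Clopper-Pearson interval. Intervals of the change in WT minus that in LNCKO are 95% intervals by the delta method, a normal approximation. Both kinds cover counting error only. The labels give no age, sex or number of the mice, and the library names of both LNCKO samples do not spell their condition, so the LNCKO values depend on the sample titles being right.

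Cells make cholesterol from acetyl-CoA by way of mevalonate, the isoprenoids, squalene and lanosterol. When sterol is scarce in the endoplasmic reticulum, SCAP escorts the SREBP transcription factors (genes Srebf1 and Srebf2) to the Golgi, where they are cut and released to switch on these enzymes, and INSIG1 holds the complex back when sterol is plentiful. SREBP-1 is known mostly for fatty acid synthesis genes and SREBP-2 for sterol genes, and both act together with NF-Y, a factor that binds the CCAAT box. In macrophages this system balances the cholesterol taken up from other cells and lipoproteins.

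Most of the members were lower with butyrate, in WT and in LNCKO alike, and the differences were small. In WT, 28 of 32 members were lower in the butyrate library than in the control, with a median change of -0.20 on the log2 scale of the FPKM ratio, beside -0.05 for all 11892 genes with a mean of at least 50 fragments. In LNCKO, 30 of 32 were lower and the median was -0.18, beside -0.02 for all genes. By any amount, 59.8% of all genes were lower with butyrate in WT and 57.2% in LNCKO.

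A gene was called when it was at least 25% higher or 20% lower in 1 library than in the other. In WT, 7 members were called lower (Acat2, Idi1, Tm7sf2, Hsd17b7, Ebp, Insig1 and Acss2) and 0 higher, where 12.1% of all genes were called lower and 10.5% higher. In LNCKO, 3 members were called lower (Mvk, Fdft1 and Hsd17b7) and 0 higher, where 5.36% of all genes were called lower and 6.23% higher. The calls thus cover few members in LNCKO, and what the members share is mostly a small change in 1 direction. Intervals of the change left out 0 for 29 members in WT and for 29 in LNCKO. The share of all genes for which they did was not computed, so these counts are not read as particular to the members. The intervals left out 0 for 9 and 10 of 10 macrophage markers, and for 15 and 14 of 24 other sterol genes, in WT and LNCKO.

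**Figure D1:**
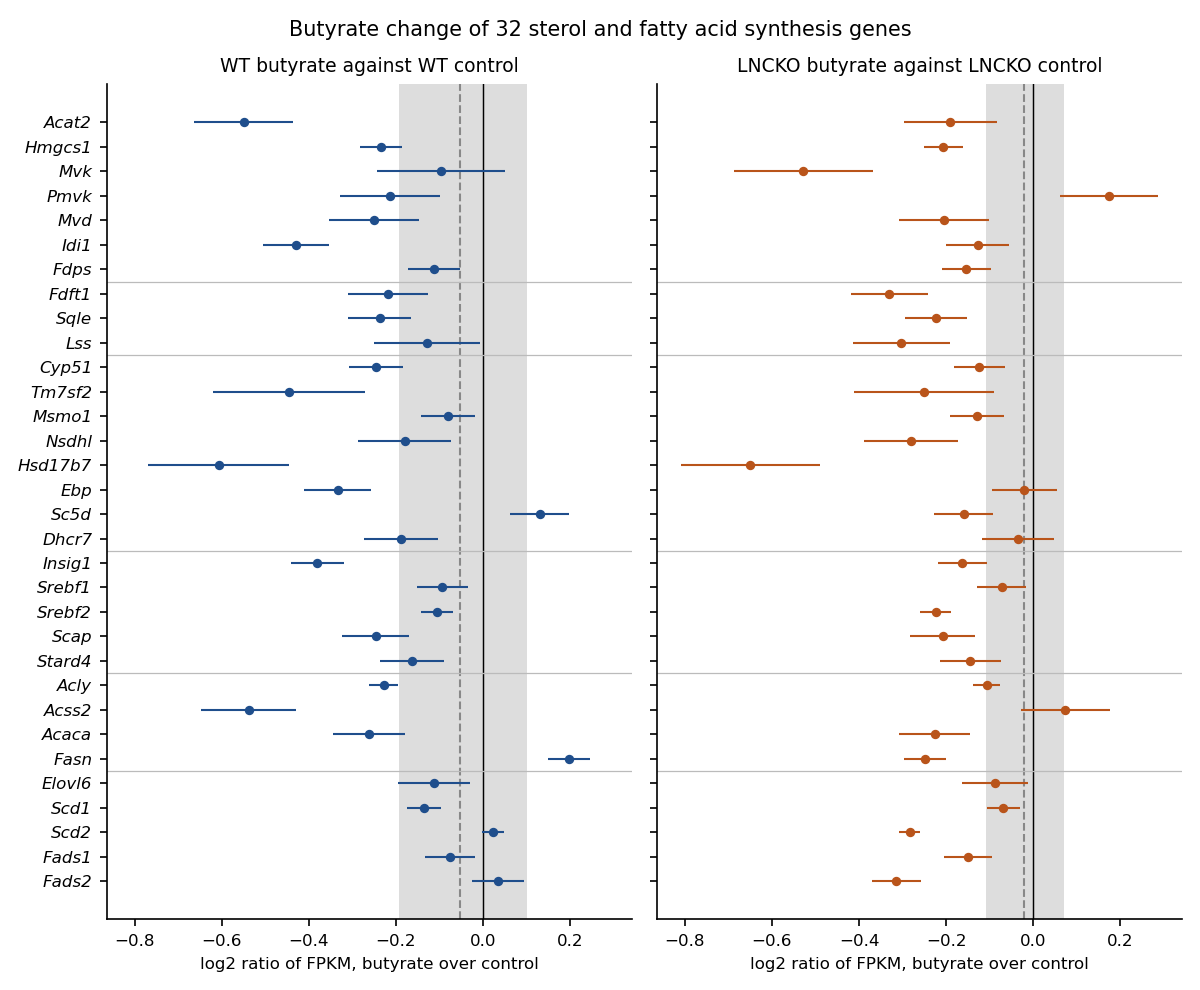
Butyrate change of each of the 32 members (log2 ratio of FPKM, x axis) in WT (blue) and LNCKO (orange), ordered by step of the pathway. Bars are 95% counting intervals, the grey band is the interquartile range of all 11892 genes and the dashed line their median. Most points lie left of 0 in both panels, and Hsd17b7 lies at -0.61 and -0.65.

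Taken member by member, 26 of 32 were lower with butyrate in both genotypes, 0 were higher in both and 6 had opposite signs, whereas 36.4% of all genes were lower in both. For 22 members, both butyrate libraries were below both control libraries, an order that 23.9% of all genes had, and 0 members had the reverse order. The lowest of the 4 libraries was WT butyrate for 23 members and LNCKO butyrate for 9. The highest was LNCKO control for 22, WT control for 7, WT butyrate for 2 and LNCKO butyrate for 1. The shares of all genes with the reverse order, or with each library lowest or highest, were not computed. Of all genes, 59.8% were lower in WT butyrate than in WT control by any amount, and 40.2% were lower in LNCKO butyrate than in WT butyrate.

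**Figure D2:**
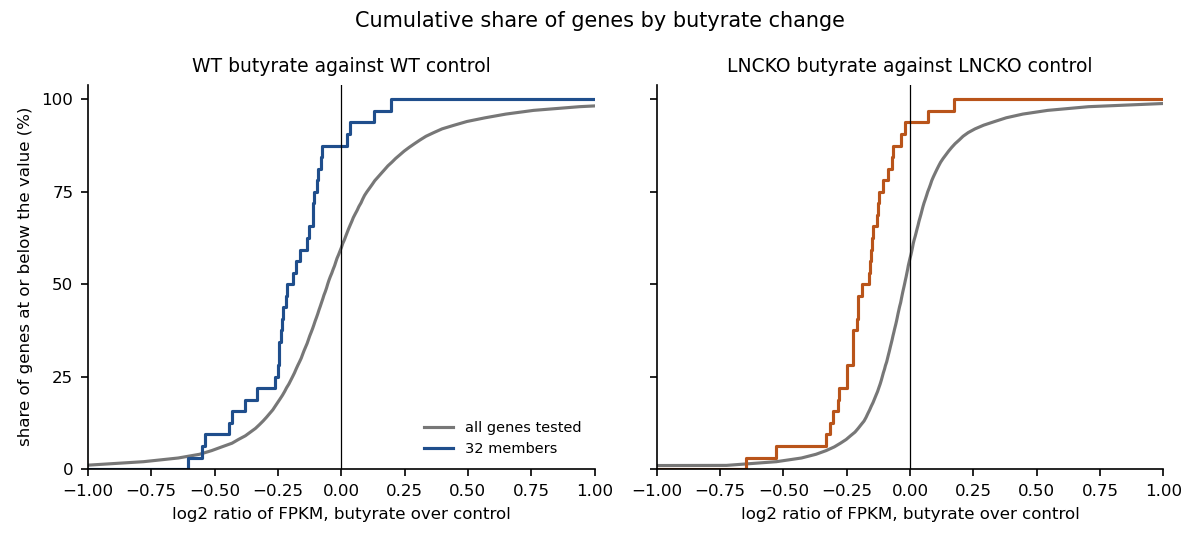
Cumulative share of genes (y axis, percent) at or below each butyrate change (x axis, log2 ratio of FPKM) for the 32 members (coloured steps) and all 11892 genes tested (grey). The curve of the members lies to the left over most of its range, with medians of -0.20 in WT and -0.18 in LNCKO beside -0.05 and -0.02 for all genes.

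The direction of these shares depends on how libraries are scaled, while most members kept theirs. When libraries were scaled by their median ratio, 50.2% of all genes were lower in WT and 49.8% in LNCKO, and 9.21% of all genes were called lower in WT and 13.0% higher. Members below 0 then numbered 28 in WT and 29 in LNCKO, with a median of -0.15 in each. When FPKM were rescaled to 1000000 per library, the median of all genes in WT moved to -0.11 and that of the members to -0.26, with 16.4% of all genes called lower and 8.75% higher.

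Promoters are shown here because SREBP and NF-Y sites are the known shared feature of these genes. Most members, but not all, were lower with butyrate in both genotypes. The RefSeq promoter table (GRCm38.p6, 250 bases before to 50 after each start) held 25 of the 32 members. The NF-Y box CCAAT, searched on both strands, was in 20 of these 25 (80%), beside 41.1% of all 27025 genes with a promoter and 43.2% of the 9477 tested genes with one. It lay within 100 bases before the start in 16 members. The E-box CACGTG, which SREBPs can also bind, was in 5 members (20%: Dhcr7, Hsd17b7, Insig1, Sc5d and Scap), beside 8.09% of all genes and 11.8% of tested genes. The sterol regulatory element core TCACCCCAC was in 1 member, Hmgcs1 (4%), beside 0.614% of all genes and 0.654% of tested genes, and its looser form TCACNCCAC, which includes the core, was in the same 1 member beside 1.44% and 1.35%. A match is a description of letters in the window, and a window without one says nothing of the factor.

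The 250 bases before the RefSeq start are printed 5′ to 3′ for the member lowest with butyrate in both genotypes (Hsd17b7, chr1:169969206-169969455, minus strand), for the feedback regulator (Insig1, chr5:28071162-28071411, plus strand), for the gene with the sterol element (Hmgcs1, chr13:119690101-119690350, plus strand) and for a member that went opposite ways in the genotypes (Fasn, chr11:120824548-120824797, minus strand). Capitals mark the motifs: ATTGG is the NF-Y box read on the other strand, CACGTG the E-box and TCACCCCAC the sterol element.
Hsd17b7: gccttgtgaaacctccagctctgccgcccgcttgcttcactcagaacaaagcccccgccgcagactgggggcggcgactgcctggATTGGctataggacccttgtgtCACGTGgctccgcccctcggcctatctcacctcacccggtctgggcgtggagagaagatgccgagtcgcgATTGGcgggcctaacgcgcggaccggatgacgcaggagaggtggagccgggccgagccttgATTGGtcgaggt
Insig1: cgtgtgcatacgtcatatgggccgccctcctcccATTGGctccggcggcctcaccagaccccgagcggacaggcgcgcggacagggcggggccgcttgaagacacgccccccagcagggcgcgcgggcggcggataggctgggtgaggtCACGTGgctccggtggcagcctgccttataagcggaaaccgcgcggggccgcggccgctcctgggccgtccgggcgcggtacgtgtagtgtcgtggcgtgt
Hmgcs1: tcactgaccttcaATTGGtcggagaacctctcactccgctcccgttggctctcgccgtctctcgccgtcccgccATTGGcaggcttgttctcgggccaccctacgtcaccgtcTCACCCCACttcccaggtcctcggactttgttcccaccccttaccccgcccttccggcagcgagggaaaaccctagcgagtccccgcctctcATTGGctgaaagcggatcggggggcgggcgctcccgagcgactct
Fasn: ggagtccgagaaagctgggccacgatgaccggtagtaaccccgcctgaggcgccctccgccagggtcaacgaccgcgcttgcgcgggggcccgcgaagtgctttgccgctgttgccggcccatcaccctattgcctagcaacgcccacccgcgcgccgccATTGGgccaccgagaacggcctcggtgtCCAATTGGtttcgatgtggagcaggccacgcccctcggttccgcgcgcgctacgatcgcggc
Hsd17b7 holds 3 NF-Y boxes at -165, -73 and -12 from the start and an E-box at -143. Insig1 holds an NF-Y box at -216 and an E-box at -101, and Hmgcs1 holds the sterol element at -137 and NF-Y boxes at -237, -176 and -45. Fasn holds NF-Y boxes at -90, -62 and -59, of which the last pair, on opposite strands, overlap in the run CCAATTGG. The GENCODE starts of Hsd17b7 and Insig1 lie somewhat upstream of the RefSeq starts used here. The part of these motifs in the changes was not tested.

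The mevalonate pathway turns acetyl-CoA into isoprenoid units. All 7 of its members were below 0 in WT (median -0.23) and 6 in LNCKO (median -0.19). Acat2, which joins acetyl-CoA molecules at the entry to the pathway, had 1.501 FPKM in WT control and 1.03 with butyrate, and in LNCKO 1.45 in control and 1.27 with butyrate. Both butyrate libraries were the lower ones, with a change of -0.55 (interval -0.66 to -0.43) in WT and -0.19 (-0.30 to -0.08) in LNCKO. Idi1, the isomerase that makes dimethylallyl diphosphate, had 8.18, 6.07, 7.91 and 7.24 FPKM in the same order of libraries. Its change was -0.43 (-0.51 to -0.35) in WT and -0.13 (-0.20 to -0.06) in LNCKO, so WT butyrate stood apart from the other 3 libraries.

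Mvk, the kinase that phosphorylates mevalonate, showed the opposite arrangement. Its FPKM were 0.833 in WT control and 0.779 with butyrate, and in LNCKO 0.813 in control and 0.564 with butyrate, so that here LNCKO butyrate stood apart. The change was -0.10 (-0.24 to 0.05) in WT and -0.53 (-0.69 to -0.37) in LNCKO. Pmvk, the next kinase, was the only member of the pathway above 0 in a genotype: its FPKM were 1.60, 1.38, 1.44 and 1.63, lower with butyrate in WT (-0.21) and higher in LNCKO (0.17).

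Hmgcs1, which makes HMG-CoA, had similar changes in both genotypes. It had 7.46 FPKM in WT control and 6.34 with butyrate, and in LNCKO 8.26 in control and 7.16 with butyrate, a change of -0.23 (-0.28 to -0.19) in WT and -0.21 (-0.25 to -0.16) in LNCKO. Mvd, the decarboxylase that makes isopentenyl diphosphate, changed by -0.25 and -0.20. Fdps, which builds farnesyl diphosphate, changed by -0.11 and -0.15, and it shares 26.7% of its exon bases with Gm43738 on the same strand, so reads of that overlap could belong to either gene.

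Squalene synthesis and its closure to lanosterol commit isoprenoids to sterols, and all 3 genes of this stretch were lower in both genotypes. Fdft1, the squalene synthase, had 1.04 FPKM in WT control and 0.892 with butyrate, and in LNCKO 1.17 in control and 0.928 with butyrate. Its change was -0.22 (-0.31 to -0.13) in WT and -0.33 (-0.42 to -0.24) in LNCKO, and 18.3% of its exon bases overlap Ctsb on the other strand. The counting setting for strand is not given in the sources used here, so reads of Ctsb, a lysosomal protease gene, could enter this value. The same limit holds for other members. Genes on the other strand overlap 13.2% of the exon bases of Scap, 12.1% of Hmgcs1 and 9.22% of Idi1. In all, 12 members share exon bases with another gene, 6 of them with a protein-coding gene. Sqle, the squalene epoxidase, changed by -0.24 and -0.22. Lss, the lanosterol synthase, changed by -0.13 and -0.30, from 0.776 to 0.709 FPKM in WT and from 0.972 to 0.788 in LNCKO.

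The conversion of lanosterol to cholesterol removes methyl groups and shifts and reduces double bonds. Of its 8 members, 7 were below 0 in WT (median -0.22) and 8 in LNCKO (median -0.14). Hsd17b7, the ketoreductase of the demethylation steps, had the largest FPKM ratio between control and butyrate of all 32 members in each genotype and was the 1 member called lower in both. A pseudocount of 1, which shrinks genes of low FPKM, left it at -0.22 in WT, behind 5 members such as Idi1 (-0.38) and Insig1 (-0.35), and at -0.23 in LNCKO, behind Scd2 (-0.28), and called it in neither genotype. Its FPKM were 0.698 in WT control and 0.459 with butyrate, and in LNCKO 0.701 in control and 0.447 with butyrate, from 776, 535, 737 and 577 fragments. The 2 controls lay next to each other and so did the 2 butyrate libraries, a 1.52-fold difference in WT (log2 -0.61, interval -0.77 to -0.45) and a 1.57-fold difference in LNCKO (-0.65, -0.81 to -0.49).

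Tm7sf2, a sterol reductase of the same stretch, was the member with the fewest fragments in a library, 482 in WT butyrate. Its FPKM were 2.00, 1.47, 2.11 and 1.77 in the same order of libraries, a change of -0.44 (-0.62 to -0.27) in WT and -0.25 (-0.41 to -0.09) in LNCKO, and 12.1% of its exon bases are shared with Vps51 on the same strand. Ebp, the sterol isomerase, had 6.69, 5.30, 6.02 and 5.94 FPKM. It was lower in WT (-0.33, -0.41 to -0.26), an interval that reaches below the size of a call, and its change in LNCKO was -0.02 (-0.10 to 0.05).

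Sc5d, the sterol desaturase, was the only sterol enzyme above 0 in WT. It had 4.68 FPKM in WT control and 5.12 with butyrate, and in LNCKO 4.95 in control and 4.43 with butyrate, which gave 0.13 (0.06 to 0.20) in WT and -0.16 (-0.23 to -0.09) in LNCKO. Cyp51, the lanosterol demethylase, changed by -0.25 and -0.12, and Msmo1 and Nsdhl, which act in the removal of the remaining methyl groups, by -0.08 and -0.13 and by -0.18 and -0.28. Dhcr7, which carries out the last reduction to cholesterol, changed by -0.19 in WT, and its change in LNCKO was -0.04 (-0.12 to 0.05).

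**Figure D3:**
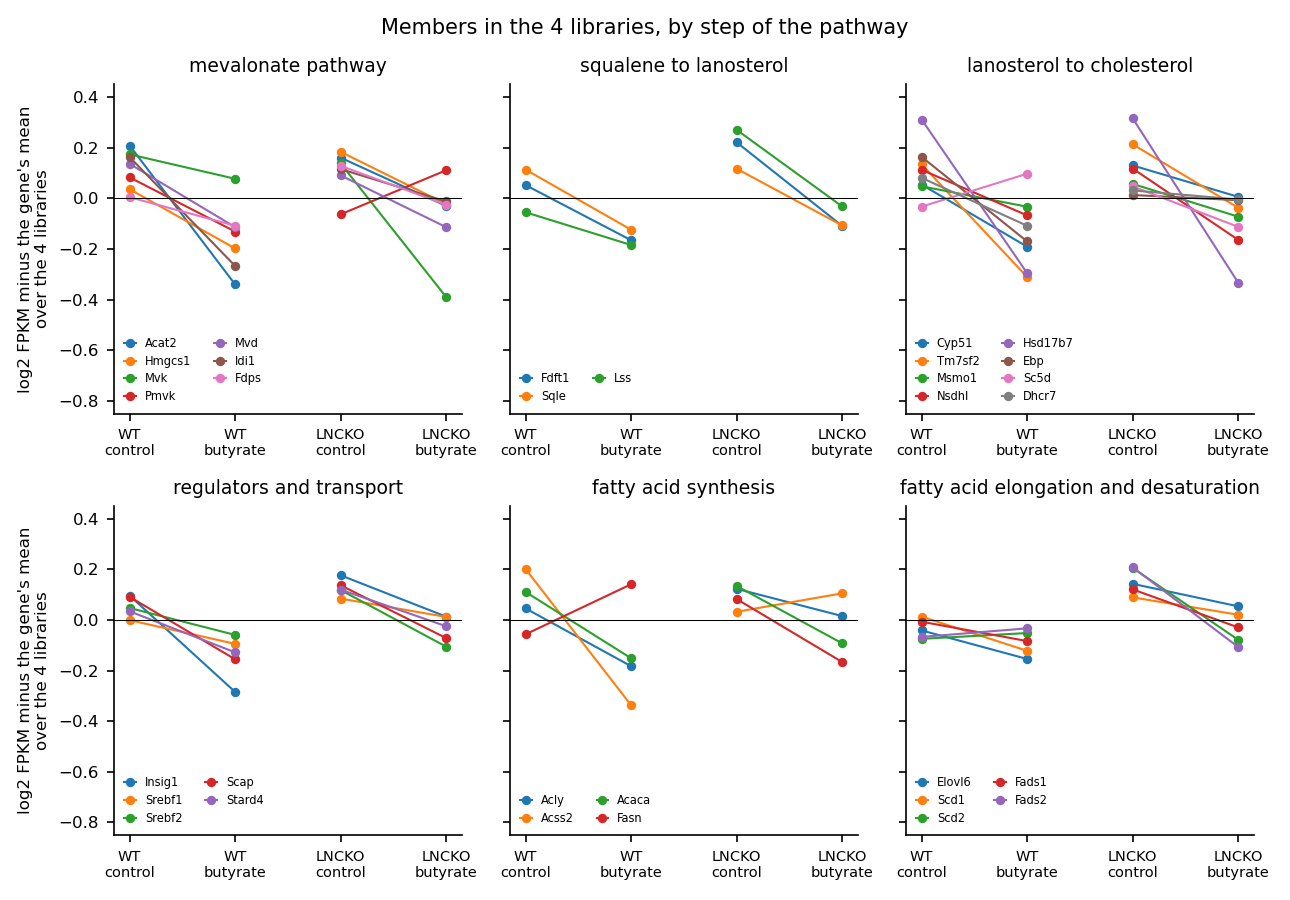
Level of each member in the 4 libraries as log2 FPKM minus the mean of that gene over the libraries (y axis), in 6 panels by step of the pathway. Lines join control and butyrate of 1 genotype and are no trend over replicates. Most lines slope down in both genotypes, and Pmvk, Sc5d, Fasn and Acss2, and slightly Scd2 and Fads2, each slope up in 1 of them.

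The regulators and the sterol carrier were lower in both genotypes, each of the 5 members, with medians of -0.16 in WT and -0.16 in LNCKO. Insig1, which retains the SREBP complex and is itself an SREBP target, had 11.8 FPKM in WT control and 9.07 with butyrate, and in LNCKO 12.5 in control and 11.1 with butyrate. Both butyrate libraries were below both controls, by -0.38 (-0.44 to -0.32) in WT and by -0.16 (-0.22 to -0.11) in LNCKO.

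The transcription factor genes themselves changed less than Insig1 in WT. Srebf2 had 3.80, 3.53, 3.99 and 3.42 FPKM, a change of -0.11 (-0.14 to -0.07) in WT and -0.22 (-0.26 to -0.19) in LNCKO. Srebf1 had 3.51, 3.29, 3.72 and 3.54 FPKM, a change of -0.09 (-0.15 to -0.03) and -0.07 (-0.13 to -0.02). Scap, their escort, changed by -0.25 and -0.21, and Stard4, which carries cholesterol between membranes, by -0.16 and -0.14. These are mRNA levels, and the cutting of SREBP that sets its activity is not measured by them.

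Fatty acid synthesis starts from cytosolic acetyl-CoA, and its 4 members did not move as 1 group. Acly, which makes acetyl-CoA from citrate, changed by -0.23 in WT and -0.11 in LNCKO, and Acaca, which carboxylates it to malonyl-CoA, by -0.26 and -0.23. Acss2, which makes acetyl-CoA from acetate, had 0.431 FPKM in WT control and 0.297 with butyrate, and in LNCKO 0.383 in control and 0.403 with butyrate. WT butyrate was again the library that stood apart, with -0.54 (-0.65 to -0.43) in WT beside 0.07 (-0.03 to 0.17) in LNCKO.

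Fasn, the synthase that builds palmitate, went the other way. Its FPKM were 6.02 in WT control and 6.91 with butyrate, and in LNCKO 6.63 in control and 5.58 with butyrate, so WT butyrate was the highest library and LNCKO butyrate the lowest. The change was 0.20 (0.15 to 0.25) in WT and -0.25 (-0.30 to -0.20) in LNCKO.

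The elongase and desaturases reshape the fatty acids that are made, and 0 of these 5 members were called in either genotype. Their medians were -0.08 in WT and -0.15 in LNCKO, with 3 and 5 members below 0. Scd2, the most abundant member, had 32.3 FPKM in WT control and 32.9 with butyrate, and in LNCKO 39.3 in control and 32.3 with butyrate, so LNCKO control alone was higher. Fads2, which opens polyunsaturated fatty acid synthesis, had 2.04, 2.09, 2.47 and 1.98 FPKM with the same single high library. The WT changes of Scd2 (0.02) and Fads2 (0.03) were above 0 as deposited and below 0 when FPKM were rescaled to 1000000 per library, and the LNCKO changes were -0.28 and -0.31. Scd1 changed by -0.13 and -0.07, Elovl6, which lengthens palmitate, by -0.11 and -0.09, and Fads1 by -0.08 and -0.15. Scd1 and Scd2 are near copies, and how shared reads were assigned is not given in the sources used here.

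Sterol enzymes and fatty acid enzymes can be set side by side in these counts. Of 18 sterol enzymes, 17 were below 0 in WT and 17 in LNCKO, 16 in both, with medians of -0.23 and -0.20. Of 9 fatty acid enzymes, 6 were below 0 in WT and 8 in LNCKO, 5 in both, with medians of -0.11 and -0.15. The difference between these sets was not tested.

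Levels of different members were compared only as fragments per kilobase of exons per 1000000 fragments, since the deposited FPKM divide by the whole genomic span. On that scale the mean over the 4 libraries was highest for Scd2 (82.5), then Acly (50.1), Scd1 (39.3), Srebf2 (29.8), Hmgcs1 (28.4) and Insig1 (26.3), and lowest for Lss (1.92), Hsd17b7 (2.22) and Tm7sf2 (2.32). Hsd17b7, with the largest change, was thus among the least abundant members, and Scd2, the most abundant, was close to 0 in WT. All exons annotated for a gene enter the length, so a gene with rarely used exons appears lower than its main transcript would be.

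**Figure D4:**
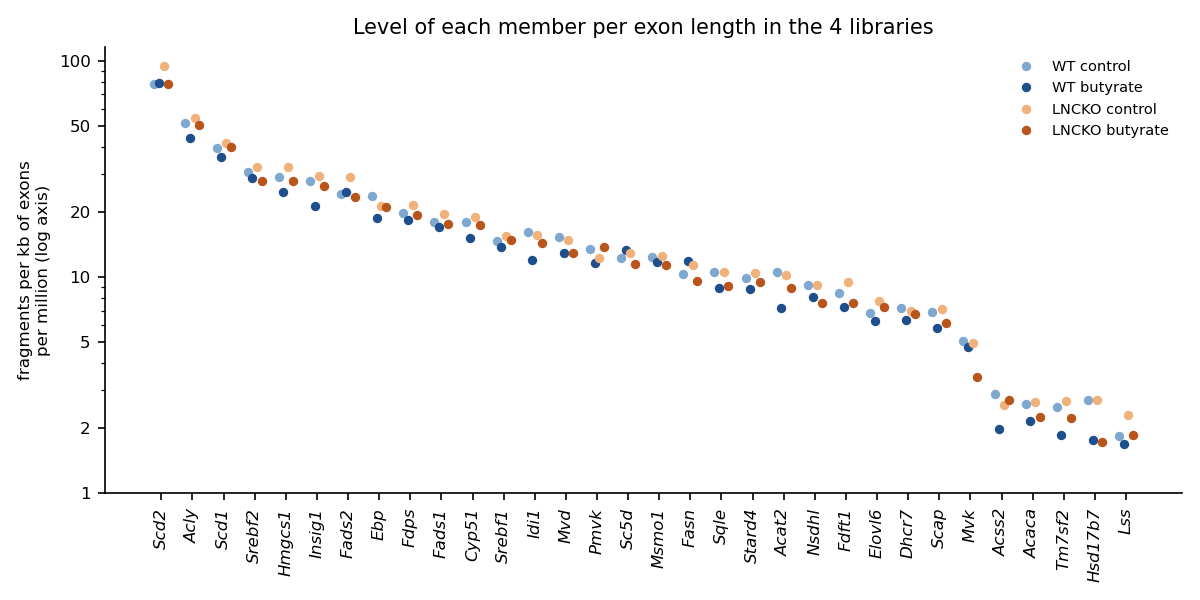
Level of each member in each of the 4 libraries (fragments per kb of exons per 1000000 fragments, log axis), ordered by the mean. Scd2 is highest at 82.5 and Lss lowest at 1.92 in the mean, and for most members the libraries lie close together relative to the range between genes.

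In the controls, LNCKO was above WT for 24 members and below it for 8, with a median difference of 0.08, beside 0.02 for all genes. Of all genes, 44.2% were lower in LNCKO control by any amount, 7.09% were called higher and 6.22% lower. The 1 member called higher was Lss (0.33, interval 0.21 to 0.44), at 0.972 FPKM in LNCKO beside 0.776 in WT, and 0 were called lower. That call was lost with median ratio scaling (0.31) and with pseudocounts of 0.1 (0.29) and 1 (0.15). Scd2 (0.28) and Fads2 (0.28) came next, and all 5 elongation and desaturation members were above 0. With libraries scaled by their median ratio, 12 members instead of 8 were below 0, so the direction of the smaller differences depends on scaling.

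Under butyrate, LNCKO was above WT for 23 members and below it for 9, with a median of 0.09, beside 0.05 for all genes. Here 40.2% of all genes were lower in LNCKO by any amount, 11.7% were called higher and 10.1% lower. Acss2 was called higher in LNCKO (0.44, 0.34 to 0.55) and Mvk lower (-0.47, -0.62 to -0.31), and Fasn was lower without reaching the fold for a call (-0.31, -0.35 to -0.26). Each library serves in 2 of the 4 comparisons, so these values and the butyrate changes are not separate evidence.

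The butyrate change in WT minus that in LNCKO had a median of -0.02 over the members, beside -0.03 for all genes. The counting interval of this difference left out 0 for 17 of 32, and the share of all genes for which it did was not computed. Acss2 (-0.61), Pmvk (-0.39), Acat2 (-0.36), Ebp (-0.31), Idi1 (-0.30) and Insig1 (-0.22) had the more negative change in WT. Fasn (0.45), Mvk (0.43), Fads2 (0.35), Scd2 (0.31) and Sc5d (0.29) had the more negative change in LNCKO. For Hsd17b7 the difference was 0.04 (-0.18 to 0.27) and for Hmgcs1 -0.03 (-0.09 to 0.04). With 1 library per group, a difference between genotypes cannot be told apart from a difference between single cultures.

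Other sterol genes had medians nearer to those of all genes. Of 25 other sterol genes, 24 passed the filter. In WT, 20 were below 0 (median -0.07, 2 called lower, Mylip and Rnf139, and 0 higher), where 12.1% of all genes were called lower. In LNCKO, 16 were below 0 (median -0.02, 0 called), where 5.36% of all genes were called lower. The called genes were Mylip, a ubiquitin ligase that LXR induces, with changes of -0.37 in WT and 0.07 in LNCKO, and Rnf139, a ubiquitin ligase of the endoplasmic reticulum, with -0.34 and -0.01.

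Of 28 other fatty acid and glycerolipid genes, 27 passed the filter. In WT, 19 were below 0 (median -0.15), with 6 called lower (Hacd2, Gpam, Acss1, Lpin1, Fads3 and Pcyt1a) and 1 higher (Mecr). In LNCKO, 17 were below 0 (median -0.06), with Dgat2 called lower and 0 higher. The shares of all genes called lower and higher were 12.1% and 10.5% in WT and 5.36% and 6.23% in LNCKO. Among the members, 7 of 32 were called lower in WT and 3 in LNCKO. The 9 fatty acid enzymes among them had medians of -0.11 and -0.15. Hacd2, a dehydratase of fatty acid elongation, changed by -0.73 (-0.86 to -0.59) in WT and by -0.06 (-0.18 to 0.06) in LNCKO.

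LXR is the receptor pair that senses oxysterols and drives cholesterol export and Srebf1. Of 8 genes of this axis, 1 was called higher and 2 lower (Nr1h3 and Mylip) in WT (median -0.06). In LNCKO, 1 was called higher and 0 lower (median 0.08). The gene called higher was Nr1d1 in both genotypes, with changes of 0.56 in WT and 1.22 in LNCKO. Nr1d1 had few fragments, 135 and 209 in WT control and butyrate and 50 and 143 in those of LNCKO. Between the controls, Nr1d1 was lower in LNCKO than in WT (-1.35). Nr1h3, which encodes LXR alpha, had 1.02 FPKM in WT control and 0.765 with butyrate, and in LNCKO 1.502 in control and 1.61 with butyrate. It was higher in LNCKO than in WT by 0.56 in the controls and by 1.08 under butyrate. Known LXR targets did not share 1 pattern: under butyrate Mylip (0.53) and Smpdl3a (0.35) were called higher in LNCKO than in WT, and Lpcat3 (0.04), Abca1 (0.0040) and Abcg1 (-0.0033) were not called.

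The libraries held 53363948 to 65521711 fragments, and the members had 482 to 27885 fragments each. Sums of marker FPKM are given to compare libraries, not lists with each other. All 10 macrophage markers were detected in every library, with summed FPKM of 821 and 901 in control and butyrate of WT and 812 and 839 in those of LNCKO. Markers of other cells were present too: the 10 neutrophil and precursor markers summed to 2748, 3273, 2389 and 2300 FPKM in the same order, and the 7 B cell markers to 209, 164, 213 and 216. In WT butyrate, where most members were lowest, the sum of the neutrophil markers was highest (median change 0.24 in WT, -0.04 in LNCKO), with 7 of the 10 above 0 and 3 below (Ngp, Camp and Ltf). All 7 B cell markers were lower than in WT control (median -0.25), as were 3 of 7 in LNCKO (median 0.00). The 6 markers of proliferating cells were lower with butyrate in both genotypes, with medians of -0.14 and -0.08 and sums of 82.3, 74.9, 86.7 and 81.9 FPKM. The part of cell mixture and of proliferation in the members' changes was not tested, and fewer cells of a type cannot be told apart from less RNA per cell.

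The erythroid and stromal lists passed the filter in part (2 of 6 and 4 of 7 markers) and differed strongly between libraries. Erythroid markers summed to 3.73 and 4.20 FPKM in control and butyrate of WT and to 14.0 and 38.8 in those of LNCKO. Stromal markers summed to 9.18, 8.18, 2.22 and 4.69 FPKM in the same order, with all 4 called higher with butyrate in LNCKO (median 1.19) and lower in LNCKO control than in WT control (median -2.14). The part of these cells in the members' differences was not tested. T and NK cell markers (5 of 6 passed) summed to 11.8, 16.6, 15.01 and 13.9 FPKM, of which Nkg7 alone had 10.5, 15.6, 13.3 and 11.9. With butyrate, 2 of the 5 were above 0 and 3 below in WT (median -0.31), and 3 and 2 in LNCKO. Mast cell and basophil markers (4 of 5 passed) summed to 7.71, 4.98, 12.6 and 12.8, of which Mcpt8 had 5.85, 2.96, 10.1 and 9.23. With butyrate, 2 of these 4 were above 0 and 2 below in WT, and 1 and 3 in LNCKO. Y-linked genes were near 0 in WT and present in LNCKO (Ddx3y, 65 and 49 fragments in WT control and butyrate beside 6128 and 7764 in LNCKO). Genotype and sex of the cultures therefore cannot be told apart in the genotype differences, and 2 members, Nsdhl and Ebp, are X-linked.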

How the data were processed

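The 4 libraries, 1 per group, were grouped by their titles and label fields. The authors deposited FPKM for 16375 genes and no counts. The submitters' processing notes name STAR 2.5.0c, HTSeq 0.6.0 and GRCm38, and the annotation version and strand setting are not given in the sources used here. The methods name TRIzol and an MGISEQ-2000 with paired-end reads, and the labels instead give RNeasy, TruSeq and Illumina protocols.

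The deposited FPKM divide by the whole genomic span of a gene (GENCODE M21). The total of each library was found as the number that makes most values whole fragments: 98.8% of values per library, and all 32 members, were whole within 0.05 of a fragment. The plain log2 ratio of FPKM (pseudocount 0) was used, since span-based values near or under 1 are shrunk by a pseudocount. Intervals of a change are Clopper-Pearson intervals of the ratio at 95%. Those of the change in WT minus that in LNCKO are 95% intervals by the delta method. Fragments carry no molecular identifiers, so intervals cover counting error only. Other genes were counted with a mean of at least 50 fragments and values above 0 in all libraries. The named genes were all members, called genes of the lists (at most 8 a list) or at a list's extremes, and Y-linked genes; Abca1, Abcg1, Lpcat3, Ngp, Camp and Ltf were added from the lists after their values were seen. Some genes of the lists are not reported here by name.

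Members and lists were chosen with earlier results of these data known. The steps were tested on simulated data. Promoters came from RefSeq (GRCm38.p6). Tools were Python 3.11.15, numpy 2.4.6, pandas 2.3.3, scipy 1.17.1 and matplotlib 3.10.9. Alternatives were pseudocounts of 1 and 0.1, other library scalings, other filters and a 1.5-fold call. Whether the lncLy6c transcript was absent from the LNCKO libraries was not analysed here.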

Additional observations from a re-analysis of the deposited data

Results flagged for a closer look

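For 3 members the butyrate change had opposite signs in the genotypes while each counting interval left out 0. In Fasn, which encodes the fatty acid synthase, the change in WT minus that in LNCKO was 0.45 (interval 0.38 to 0.51). In Sc5d, the sterol desaturase, it was 0.29 (0.19 to 0.38). In Pmvk, the phosphomevalonate kinase, it was -0.39 (-0.55 to -0.23), with the higher butyrate value in LNCKO. Each change rests on 1 library per group, and these differences were not tested.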

How the results depend on the processing

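No paired analysis was possible because each group is 1 library and no result comes from a test. Over the alternatives that kept all 32 members, 28 to 30 members were below 0 with butyrate in WT and 29 to 30 in LNCKO. The share of all genes below 0 moved from 50.2% to 69.0% in WT and from 49.8% to 63.4% in LNCKO over them. No called value of a single member changed sign. With a mean FPKM of at least 1, 24 members were left, of which 20 and 23 were below 0, beside 63.1% and 57.9% of all genes. Members lower in both genotypes numbered 25 to 28 of 32, or 19 of these 24. Members with both butyrate libraries below both controls numbered 20 to 25, or 17 of 24. The matching shares of all genes, 36.4% and 23.9% as reported, were not computed for the alternatives. These ranges are therefore not read as particular to the members. The median of the change in WT minus that in LNCKO, -0.02, was 0.0080 with median ratio scaling, so its sign depends on scaling.

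The counts of calls were the part that moved. With a pseudocount of 1, called lower were 2 members in WT and 0 in LNCKO (1.87% and 0.362% of all genes). In LNCKO against WT, 0 were called higher in the controls (0.866% of all genes) and 0 lower and 0 higher under butyrate (1.72% and 2.46%). With a pseudocount of 0.1 and with median ratio scaling, 0 were called higher in LNCKO control (3.57% and 6.53% of all genes). Median ratio scaling gave 2 called lower in LNCKO against WT under butyrate, where 12.2% of all genes were. Rescaled to 1000000, 5 were called lower with butyrate in LNCKO (5.996% of all genes), and 3 were called higher in LNCKO against WT under butyrate (14.7%). With a mean FPKM of at least 1, 1 was called lower with butyrate in LNCKO (1.49% of all genes), and 0 were called in LNCKO against WT in the controls or under butyrate. Of all genes, 2.78% were then called higher and 2.03% lower in LNCKO control, and 7.66% and 4.71% in LNCKO under butyrate. Past 1.5-fold, 1 was called lower in WT and 1 in LNCKO (Hsd17b7), where 3.66% and 1.56% of all genes were, and 0 in LNCKO against WT. Of all genes, 2.56% were past 1.5-fold higher and 2.93% lower in LNCKO control, and 4.18% and 4.53% in LNCKO under butyrate. With a pseudocount of 1 the changes of Hsd17b7 were -0.22 in WT and -0.23 in LNCKO. Of 512 values of single members, 51 moved beyond their counting interval and 12 changed sign, 7 with median ratio scaling and 5 with rescaling to 1000000, among them the LNCKO butyrate change of Ebp and the WT butyrate changes of Scd2 and Fads2. None of the 12 was a called value, and as reported they were at most 0.039 in size. With a mean of at least 500 fragments, a filter chosen after seeing the data, 9.30% of 9358 genes were called lower in WT and 1.72% in LNCKO, and 64.1% and 59.4% were below 0. Without replicates, no depth shows how much a second culture would differ.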
